A study of Mus musculus with 5 samples.

Results

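Control cultures of mouse sarcoma cells were compared at 48 h and at 3 h, with 1 one-colour microarray at each time, so the comparison rests on 2 of the 5 arrays of the study. The arrays were chosen by their titles, which name a control at each time. The cells were lines established from sarcomas of the soft tissue in mice whose EWS/ATF1 fusion gene answers to doxycycline, on a strain background labelled C57/BL6, 129 and ICR mixed. All lines carry the inducible EWS/ATF1 alleles, the controls included. The other 3 arrays, used here for their levels, hold cells given a low or a high dose of doxycycline for 3 h, or the high dose for 48 h. The doxycycline concentrations, whether the controls received any, the age of the mice and the tumour line behind each array are details not given in the sources used here. Time, culture and tumour line can therefore not be told apart in any difference below. With 1 array a side there is no replicate check, and no p-value is given.

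Glutathione is the main small thiol with which cells neutralise peroxides and reactive chemicals. Gclc and Gclm encode the subunits of glutamate-cysteine ligase, which makes the first bond of glutathione, and glutathione S-transferases couple the finished tripeptide to electrophiles. Many of these genes are targets of NRF2 (gene Nfe2l2), a transcription factor that KEAP1 holds down until electrophiles or oxidants release it, and that binds the antioxidant response element with small MAF proteins. Periostin, encoded by Postn, is a secreted matrix protein of fibroblasts.

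Levels are log2 signals relative to the 75th percentile of the array, and a difference is the level at 48 h minus that at 3 h. A gene was measured if its probe lay above background on both control arrays, and was called at a difference of 2-fold, or 1 on the log2 scale. Among 14017 measured genes, 542 were called in either direction (3.87%), 351 of them higher (2.5%) and 191 lower (1.36%). The median difference was 0.01 and the SD over genes 0.44. A further 88 genes were at least 2-fold higher and 75 at least 2-fold lower as bounds, because their probes lay below background on 1 array. The median spread of a difference over spots of the same probe was 0.0877, and the median scanner error 0.204. Both cover error within an array and neither covers the difference between cultures. Calls were denser among dim genes, with 7.58% of the lowest, 2.55% of the middle and 1.48% of the highest of 3 equal groups of genes by level. Of the calls 64.8% were higher. It was 49.3% with arrays scaled on their median, which moved the median of all genes to -0.12, and 57.7% after quantile normalization.

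**Figure D1:**
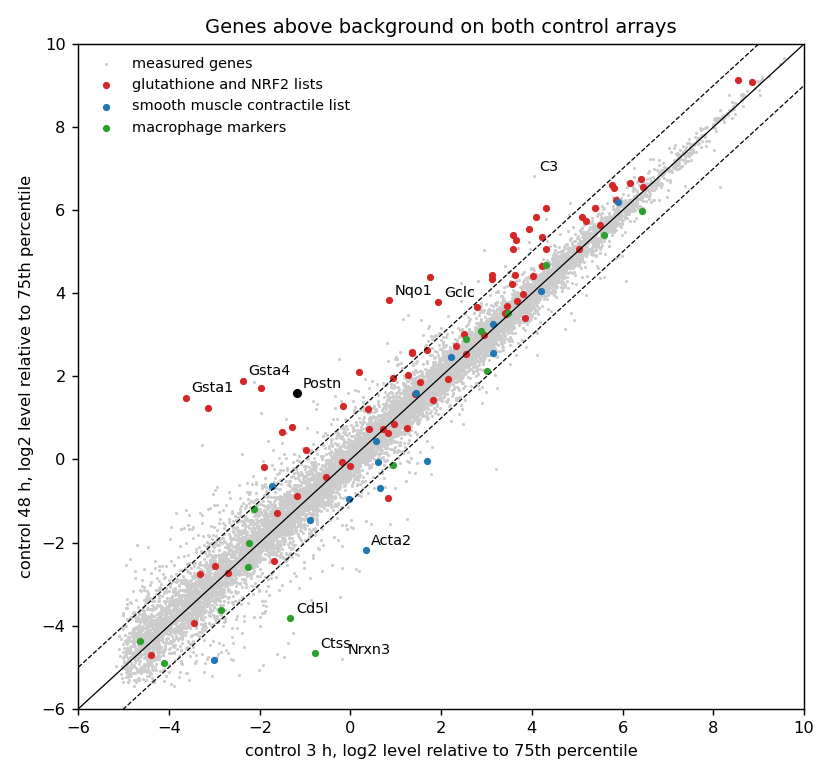
Level of each gene on the 3 h control array (x axis) and the 48 h control array (y axis), both log2 relative to the array's 75th percentile. Each point is a gene above background on both arrays, the solid line marks equality and the dashed lines 2-fold. Gsta1, Gsta4, Nqo1, Gclc and Postn lie above the upper dashed line, and Acta2, Cd5l, Ctss and Nrxn3 below the lower one.

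The cells carried fibroblast markers, as 16 of 16 such genes lay above background on both control arrays, among them Col1a1, Col1a2, Pdgfrb and Vim. Over all named genes 14017 of 20018 were above background on both. Of 14 neural crest markers 10 were, including Sox10 and Ngfr, a share close to that over all named genes. Of 10 melanocyte markers 3 were, namely Mitf, Tyr and Pmel, while Dct, Mlana and Tyrp1 were not well above background. The Y-linked genes Ddx3y, Eif2s3y, Kdm5d and Uty were above background on all 5 arrays, with control differences of 0.12, -0.18, 0.40 and -0.14, and Xist was not well above background on any. Fos, the gene named in the title of the study, differed by 0.01 between the controls. Probes above background made up 55.5% of all on the 3 h and 59.9% on the 48 h control array, and the 75th percentile of signal was 725 and 649.

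Gsta1, an alpha class glutathione S-transferase, had the largest difference among measured genes, and all 4 genes of that class were among the 12 largest rises. Gsta1 was at -3.63 in the 3 h control, -3.50 at the low dose, -3.82 at the high dose, 1.49 in the 48 h control and -2.85 after 48 h of the high dose. The 48 h control stood alone above the other 4 arrays, and the difference between controls was 5.12, or 34.8-fold. Gsta4, which handles products of lipid peroxidation, was at -2.37, -2.51, -3.09, 1.90 and -0.76 in the same order of arrays, a difference of 4.26 between controls. Its 48 h high-dose level lay between the 3 h arrays and the 48 h control. Gsta2 differed by 4.38 and Gsta3 by 3.70, with 3.46 on the other probe of Gsta3. Gm10639, a gene model that lies between Gsta1 and Gsta2, differed by 4.46. These copies resemble each other in sequence, probe sequences were not used here, and signal of one copy on the probe of another cannot be told apart from its own.

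Promoter letters are shown for Gsta3, Gclm, Mgst1, Txnrd1 and G6pdx because these genes, from several steps of the pathway, rose at 48 h and hold the core of the antioxidant response element upstream of their start. The core searched was TGACNNNGC, on either strand, in the window from 250 bases before to 50 after the start of each gene in RefSeq's assembly GRCm38.p6. Each stretch is written along the strand of its gene, with the 9 letters of the core in capitals and 25 bases on either side.
Gsta3, chr1:21240439-21240497, plus strand: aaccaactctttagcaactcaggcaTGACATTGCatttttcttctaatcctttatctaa
Gclm, chr3:122245398-122245456, plus strand: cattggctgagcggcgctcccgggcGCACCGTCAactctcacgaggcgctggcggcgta
Mgst1, chr6:138140446-138140504, plus strand: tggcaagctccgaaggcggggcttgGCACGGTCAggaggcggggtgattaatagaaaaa
Txnrd1, chr10:82859089-82859147, plus strand: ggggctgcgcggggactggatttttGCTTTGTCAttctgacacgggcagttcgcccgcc
G6pdx, chrX:74428904-74428962, minus strand: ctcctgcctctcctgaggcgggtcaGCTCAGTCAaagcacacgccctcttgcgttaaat
The core reads along the gene's strand in Gsta3, where it starts 121 bases before the gene start, and on the opposite strand in Gclm, Mgst1, Txnrd1 and G6pdx. Among the glutathione and NRF2 genes that rose and have a promoter in the table, 8 of 23 (34.8%) held the core, against 10 of 45 (22.2%) of those measured and not called higher. Of all genes with a promoter listed 14.0% held it, of genes measured on both control arrays 16.4%, of all genes called higher 23.1% and of those called lower 25 of 139. A match is a description of letters in this window and not a binding site.

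Over the whole family, 11 of 23 measured glutathione S-transferases rose and 0 fell. Their median difference was 0.76, beside 0.01 over all measured genes and 2.5% of genes higher. The calls were uneven between classes. All 4 alpha class genes rose, with a median of 4.32, and 4 of 6 measured mu class genes did, with a median of 1.63. In the pi class 0 of 2, in the theta class 0 of 3, in the kappa class 0 of 1 and in the zeta class 0 of 1 were called, with medians of 0.37, 0.56, 0.15 and 0.05. Of the omega class Gsto2 rose by 1.22 while Gsto1 differed by 0.03.

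In the mu class, which conjugates a broad range of electrophiles, Gstm1 was at 1.76, 1.64, 1.24, 4.38 and 1.15 over the 5 arrays, the 3 h control first, then the low and the high dose for 3 h, the 48 h control and the high dose for 48 h. The 48 h control was the only high array. The difference between controls was 2.62, with 2.79 on the other probe. Gstm3 differed by 1.92 and Gstm2 by 1.33, with 1.16 and 1.32 on its other probes. Gstm4 differed by 2.17 on its brighter probe and by 0.43 on the other. Gstm5 and Gstm7 were at 0.08 and -0.49. Among the microsomal transferases, which sit in membranes, Mgst1 rose by 1.76 and Mgst2 by 1.73, and Mgst3 was at -0.39. Mgst1 was at 4.08, 3.99, 4.11, 5.85 and 2.50, so it was highest in the 48 h control and lowest at 48 h of the high dose.

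**Figure D2:**
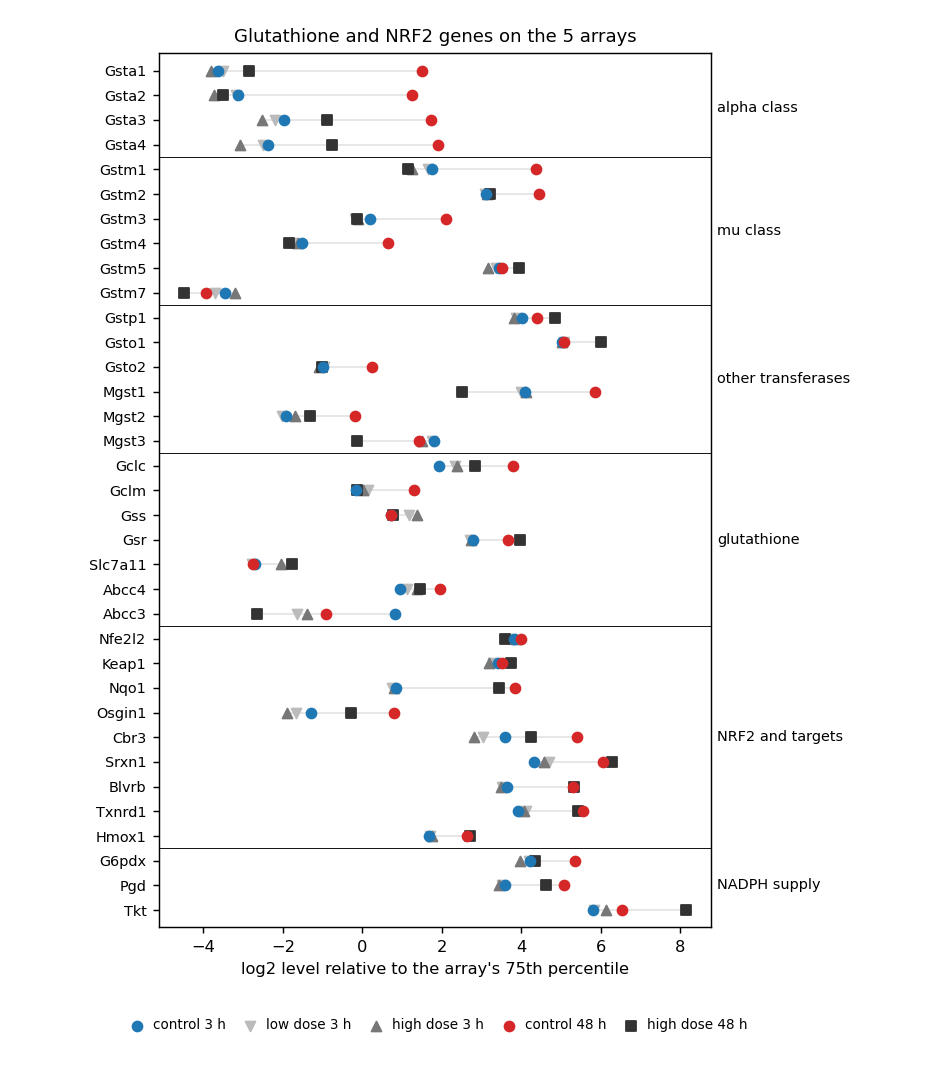
Level of glutathione and NRF2 genes on each of the 5 arrays (x axis, log2 relative to the array's 75th percentile), 1 gene a line and 1 symbol an array. For the alpha class genes and for Gstm1 to Gstm4 the 48 h control (red) lies apart from the other 4 arrays, while Nqo1, Srxn1, Blvrb and Txnrd1 are high on both 48 h arrays.

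Both subunits of the ligase that starts glutathione synthesis rose. Gclc, the catalytic subunit, was at 1.94 in the 3 h control, 2.34 and 2.38 at the low and high dose for 3 h, 3.79 in the 48 h control and 2.84 at the high dose for 48 h. Gclm, the modifier subunit, was at -0.17, 0.15, 0.02, 1.30 and -0.14. The 3 h arrays lay close together for both genes, and the 48 h control was the highest array, with differences of 1.85 and 1.46. Gss, which completes the tripeptide, was at 0.00 and Slc7a11, the cystine importer, at -0.05. Gsr, which regenerates reduced glutathione, was at 0.88 and at 0.93 on its other probe, under 2-fold. Of the exporters of conjugates, Abcc4 rose by 1.01, at the threshold, and Abcc3 fell with a difference of -1.74. Abcc3 was at 0.83 in the 3 h control and between -2.65 and -0.92 on the other 4 arrays, so the 3 h control lay apart. In the list of synthesis and transport 3 of 20 measured genes rose and 1 fell, beside 2.5% and 1.36% of all genes. The median was 0.05.

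Of the NRF2 regulators and other NRF2 targets 9 of 29 rose and 0 fell, beside 2.5% and 1.36% of all measured genes. Their median was 0.60. Nqo1, a quinone reductase often used as a readout of NRF2, was at 0.85 in the 3 h control, 0.74 and 0.79 at the low and high dose for 3 h, 3.83 in the 48 h control and 3.45 at the high dose for 48 h. Both 48 h arrays were high and the 3 h arrays were alike, and the controls differed by 2.98. Osgin1 rose by 2.08, the carbonyl reductase Cbr3 by 1.83, sulfiredoxin (Srxn1) by 1.73, biliverdin reductase B (Blvrb) by 1.65 and thioredoxin reductase 1 (Txnrd1) by 1.62. The aldo-keto reductase Akr1b8 was at 1.24, and Trib3 and the oxidase Aox1 at 1.21. Trib3, a pseudokinase, is also a target of ATF4. Hmox1, heme oxygenase 1, lay just under the threshold at 0.95, with 0.83 on its other probe. The regulators themselves were under 2-fold: Nfe2l2 was at 0.17, Keap1 at 0.11 and Bach1 at 0.50. Mafg, a small MAF partner, was at 0.72, above the 95th percentile of all differences (0.70). Its other probes were at 0.71 and at 0.63, the latter under that percentile.

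NADPH, which keeps glutathione and thioredoxin reduced, comes largely from the pentose phosphate pathway. Its oxidative enzymes rose, G6pdx by 1.14 and Pgd by 1.47. Of the non-oxidative arm Tkt was at 0.74 and Taldo1 at 0.66, and of the other NADPH sources Me1 was at 0.77 and Idh1 at 0.33. All 6 differences were positive and 2 were called higher, beside 2.5% of all measured genes. Among other antioxidant enzymes 1 of 12 rose, the metallothionein Mt2 by 1.39, and the median was 0.14.

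Over the lists of transferases, glutathione synthesis, NRF2 targets and NADPH supply, 25 of 78 measured genes rose and 1 fell. Among all measured genes 2.5% rose and 1.36% fell. Of the 78 differences 65 were positive. The lists were written with earlier results of these data known and hold Gsta1 and Gclc, markers of the comparison. These counts are therefore a description and not independent support. These 25 were picked for a 48 h control above the 3 h control, so that part of the next counts follows from the call. For all 25 the 48 h control was above each of the 3 arrays of 3 h. For 22 it was also above the high dose at 48 h. In 16 of them the 48 h control lay at least 1 from each of the other 4 arrays. Of all 351 genes called higher it did so in 114. The 3 h arrays spanned a median of 0.32 and at most 0.77 for these 25 genes. In the high-dose cultures, which share no array with the controls, 10 of the 25 were at least 2-fold higher at 48 h than at 3 h, 1 was lower (Mgst1) and 14 stayed under 2-fold. Over all genes measured in that pair 9.13% were higher and 8.43% lower, 17.6% in all. Nqo1 was at 2.65 there, Gsta4 at 2.33, Blvrb at 1.82, Srxn1 at 1.71, Gsta3 at 1.64, Osgin1 at 1.60 and Txnrd1 at 1.35. Gsta1 was at 0.97, Gsta2 at 0.23, Gstm1 at -0.09 and Gclm at -0.16.

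**Figure D3:**
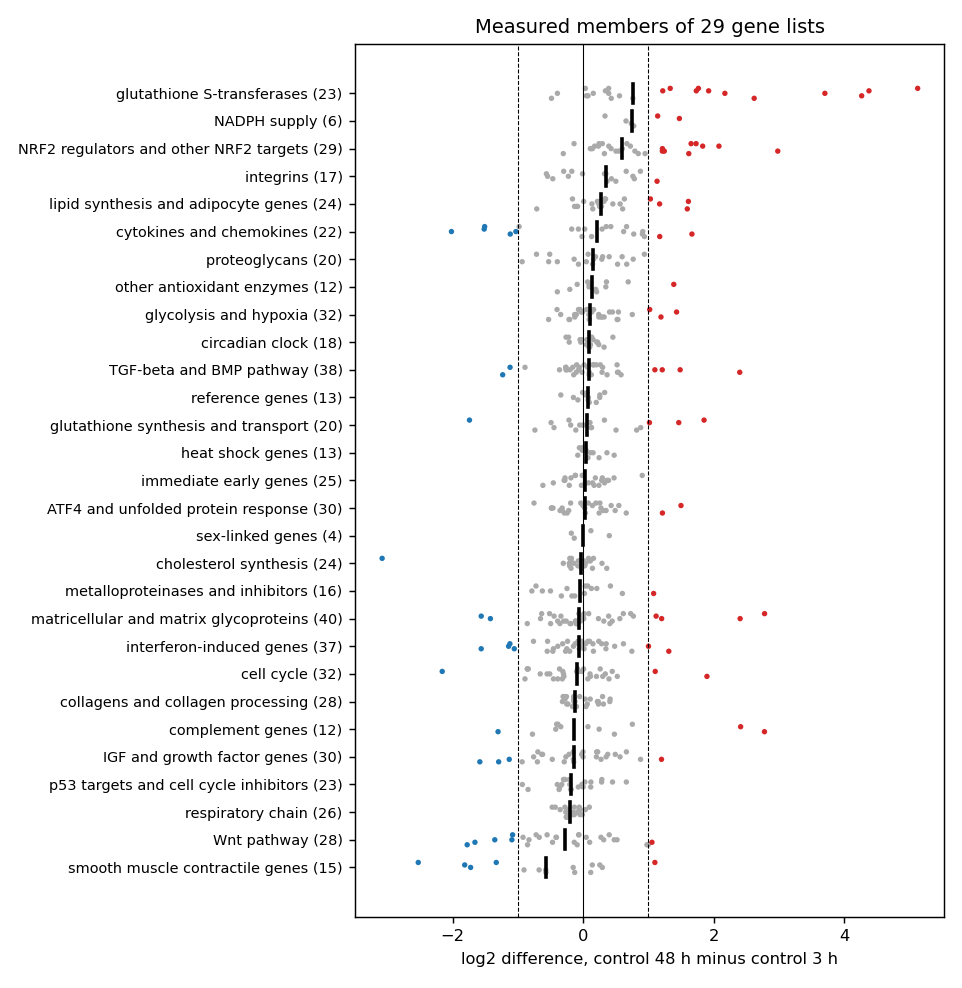
Difference between the control arrays (x axis, log2, 48 h minus 3 h) for the measured members of 29 gene lists, with the number measured after each name. Each point is a gene, red if at least 2-fold higher, blue if at least 2-fold lower and grey otherwise, and the black bar is the median, which runs from 0.76 for the transferases to -0.57 for the contractile genes.

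Postn was at -1.18 in the 3 h control, -1.16 and -0.29 at the low and high dose for 3 h, 1.60 in the 48 h control and -3.99 at the high dose for 48 h. The 48 h arrays were thus the extremes, the control highest and the high dose lowest, and the controls differed by 2.78, or 6.86-fold. Few other matrix genes moved with it. Of 40 matricellular proteins and matrix glycoproteins 4 rose and 2 fell, beside 2.5% and 1.36% of all measured genes, with a median of -0.06. Comp, a cartilage matrix protein, rose by 2.40, tenascin X (Tnxb) by 1.20 and Smoc2 by 1.12. The microfibril protein Mfap5 fell with a difference of -1.56 and fibulin 1 (Fbln1) with -1.42. Fn1 was at 0.77, Tnc at -0.51, Sparc at -0.12 and Tgfbi at 0.00.

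Collagens and their processing enzymes did not reach 2-fold in any of 28 measured genes, with a range from -0.32 to 0.41 and a median of -0.13. Col16a1 and P4ha3 were at the upper end, both at 0.41. None of 20 proteoglycans was called, with Omd at 0.94 and Fmod at -0.93 at the ends of their range. Among 16 metalloproteinases and inhibitors Adamts5, which cleaves aggrecan, was at 1.08 on its brighter probe and 0.16 on its other, and lost its call under 4 alternatives (0.51 to 0.95). Of 17 integrins Itga11, a collagen receptor, rose by 1.13, beside 2.5% of all measured genes higher, and the median was 0.35. Adamtsl2, a secreted protein that binds fibrillin, was among the 12 largest rises at 3.08, with levels of -1.96, -1.34, -0.99, 1.12 and -1.78.

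The smooth muscle contractile genes, which mark myofibroblasts and pericytes as well as smooth muscle, had the lowest median of the 29 lists at -0.57. Of 15 measured, 4 fell and 1 rose, beside 1.36% and 2.5% of all measured genes. Acta2, alpha smooth muscle actin, was at 0.34 in the 3 h control, 1.20 and -0.47 at the low and high dose for 3 h, -2.19 in the 48 h control and -2.43 at the high dose for 48 h. Both 48 h arrays were low, and the controls differed by -2.52, or 5.75-fold. Actg2 was at -1.81, Tagln at -1.72 and the myosin light chain kinase Mylk at -1.33, and Actg2 fell short of 2-fold with normexp background, at -0.68. Cnn1, calponin, was at least 3.82-fold lower, its probe being dim on the 48 h control array. Synpo2, an actin-bundling protein, rose by 1.10 but fell short of 2-fold with median scaling, and the regulators Srf and Myocd were at -0.13 and -0.91. The 48 h high-dose array was also at least 2-fold lower than the 3 h high-dose array for 8 of 15 genes of the list measured on both. Over all genes measured on both 8.43% were lower. In bulk RNA, fewer cells of a type and less RNA per cell cannot be told apart.

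TGF-beta induces matrix and contractile genes in fibroblasts, and its targets did not move one way. Of 38 measured genes of the TGF-beta and BMP pathway 4 rose and 2 fell, beside 2.5% and 1.36% of all measured genes. The median of the list was 0.09. Pmepa1, a feedback inhibitor of the pathway, was at -1.42 in the 3 h control and between 0.98 and 2.46 on the other 4 arrays. The 3 h control was lower than every other array by over 2-fold, and the control difference was 2.40. Skil rose by 1.10 and Bmp6 by 1.21, while follistatin (Fst) was at -1.23 and Id4 at -1.12. Fst was at 3.96 in the 48 h control and between 5.19 and 6.58 elsewhere.

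Complement genes split. C3, the central component, was at 4.04, 4.05, 5.70, 6.82 and 4.88 over the 5 arrays and differed by 2.78 between controls, with 2.68 on its other probe. Serping1, the C1 inhibitor, fell with a difference of -1.30. In all 2 of 12 rose and 1 fell, beside 2.5% and 1.36% of all measured genes. C3 and Saa3 were also higher at 3 h of the high dose than in the 3 h control, so the 3 h level of the control was not shared by all 3 h arrays.

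Interferon-induced genes held both directions, with 2 of 37 higher and 4 lower, beside 2.5% and 1.36% of all measured genes. Their median was -0.06. The 4 that fell include 3 GTPases that interferon induces against intracellular pathogens: Iigp1 at -1.56, Irgm2 at -1.14 and Irgm1 at -1.12. Iigp1 was at 1.47 in the 3 h control and between -0.48 and 0.58 on the other 4 arrays, so its 3 h control level was the highest of all. Tgtp2, another such GTPase, was at 6.08 in the 3 h control and between 3.69 and 5.11 elsewhere, and both of its probes fell, at -1.77 and -2.13. Gm4951 and Gm4841, which lie next to Iigp1 in gene order, were at -2.43 and -3.07. The GTPase copies resemble each other and may share signal. Isg20, an exonuclease, rose by 1.31, and the RNA sensor Ifih1 lay at the 2-fold threshold.

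Of 22 measured cytokines and chemokines 2 rose and 5 fell, beside 2.5% and 1.36% of all measured genes, with a median of 0.21. The pentraxin Ptx3 was at -2.02, the monocyte chemokines Ccl7 at -1.52 and Ccl2 at -1.51, the neutrophil chemokine Cxcl1 at -1.12 and Ccl9 at -1.03. The acute phase protein Saa3 rose by 1.67 and Il6 by 1.17. Ccl2 was at -0.36 in the 3 h control, 1.31 and -1.18 at the low and high dose for 3 h, -1.87 in the 48 h control and -2.55 at the high dose for 48 h, so the arrays of 3 h were themselves far apart. Ptx3 was at -1.99, -1.16 and -4.48 on the arrays of 3 h in that order, and at -4.01 in the 48 h control.

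Of 16 measured macrophage markers 3 fell and 0 rose between controls, beside 1.36% and 2.5% of all measured genes. Another 2 fell as bounds, 7 differences were positive and the median was -0.26. Ctss, the lysosomal protease cathepsin S, was at -0.78, -0.87, -4.79, -4.67 and 1.43 over the 5 arrays, a control difference of -3.89, or 14.8-fold. Cd5l, a protein secreted by macrophages, was at -1.33, -1.47, -4.10, -3.82 and 1.58, a difference of -2.50. In both genes the 3 h control and low dose were alike, the 3 h high dose and 48 h control were low, and the 48 h high dose was highest. Tyrobp, an adaptor of myeloid receptors, was at least 6.51-fold lower and Lyz1 at least 5.08-fold lower, and Cd74 was at -1.05. C1qc and Lyz2 were below background in the 48 h control and at 3 h of the high dose only. Of 29 macrophage markers on the array, 20 were above background in the 3 h control, 22 at the low dose, 16 at the high dose for 3 h, 17 in the 48 h control and 24 at the high dose for 48 h. Their summed level relative to the 75th percentile was 191, 186, 159, 165 and 366 in that order. The sum is of linear levels, so bright genes weigh most in it. The median log2 level of the 29 was -2.85, -2.99, -4.79, -4.58 and -1.56. Others did not fall: Csf1r was at 0.34 and Adgre1 at 0.26, and Cd14 had the highest difference of the list at 0.93, under 2-fold. Their part in the differences of cytokine, complement and interferon genes was not tested.

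**Figure D4:**
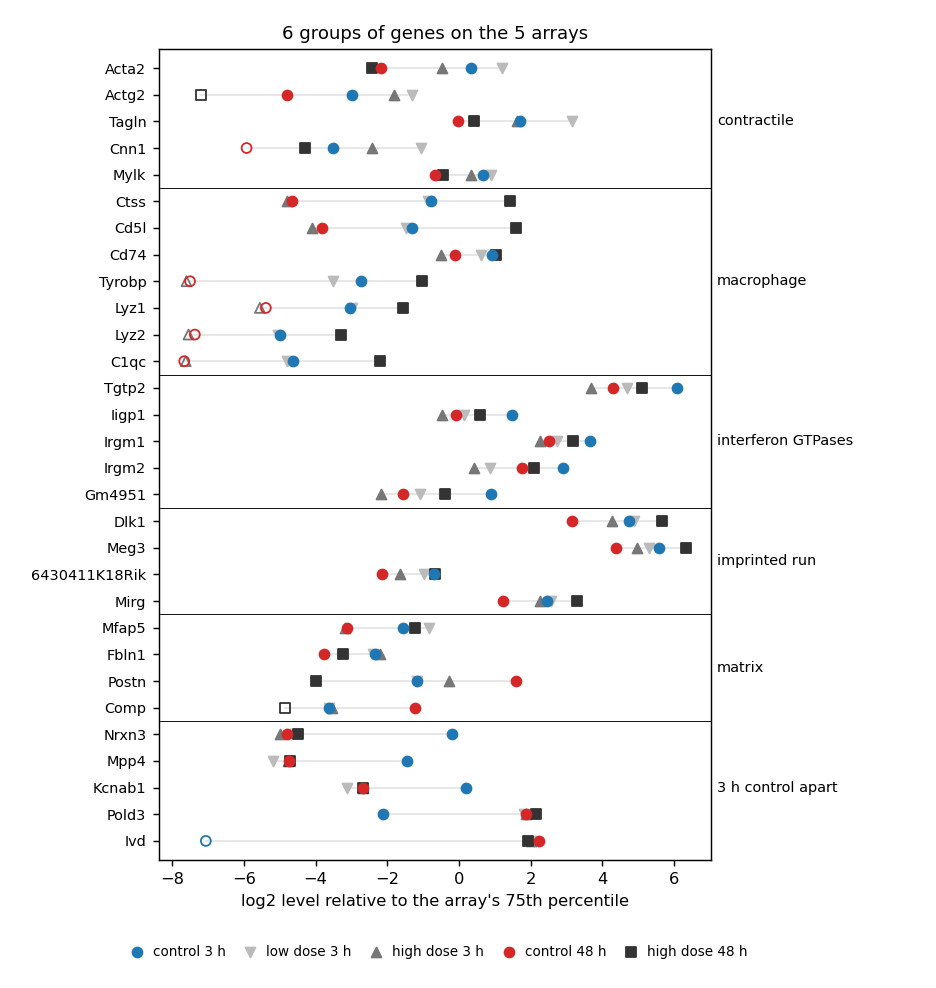
Level of genes from 6 groups on each of the 5 arrays (x axis, log2 relative to the array's 75th percentile), 1 gene a line and 1 symbol an array, with open symbols where the probe was not above background. The plotted contractile genes are low on both 48 h arrays. The plotted macrophage genes are low on the 3 h high-dose and 48 h control arrays. They were picked because they fell or were below background in the 48 h control, and 7 of 16 measured macrophage markers had positive differences. In the last group the 3 h control differs from all other arrays on the plotted probes.

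Of 28 Wnt pathway genes 1 rose and 5 fell, beside 2.5% and 1.36% of all measured genes, with a median of -0.27. The secreted inhibitor Wif1 was at -1.78, the ligands Wnt6 at -1.66, Wnt11 at -1.35 and Wnt5b at -1.09, and Dkk3 at -1.08, while Wnt16 rose by 1.05. Of 30 IGF and growth factor genes 1 rose and 3 fell, with a median of -0.15. Igfbp3 and Igfbp7, which bind insulin-like growth factors, were at -1.29 and -1.13, and the receptor Pdgfra rose by 1.20. With normexp background Igfbp3 (-0.59), Igfbp7 (-0.90) and Dkk3 (-0.69) fell short of 2-fold, as did Wnt16 (0.85). Pdgfra was at -1.39, -1.51, -1.15, -0.20 and -3.09, so like Postn it was highest in the 48 h control and lowest at 48 h of the high dose.

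Dlk1, a membrane protein of the Notch ligand type that holds back adipocyte differentiation, was the leading gene of a run of neighbours that all fell. It lies in an imprinted cluster with the non-coding RNAs Meg3 and Mirg. Dlk1 was at -1.58 with -1.70 on its other probe, Meg3 at -1.20, 6430411K18Rik at -1.46 and Mirg at -1.23. Dlk1 was at 4.73, 4.89, 4.26, 3.15 and 5.67 over the 5 arrays, so the 48 h control was the lowest and the 48 h high dose the highest. The other 3 genes of the run had the same lowest array. Dio3, at the other end of that imprinted cluster and chosen after its value was seen, was at 0.06. Other runs of at least 3 neighbouring measured genes called one way were Gsta4, Gsta1, Gm10639 and Gsta2, then Gstm3, Gstm2, Gstm1 and Gstm4, then Gm4951, Gm4841 and Iigp1, and Opn3, Chml and Wdr64. The last run was higher at 2.67, 1.60 and 2.24, and the opsin Opn3 was at 2.42 in the 48 h control and between -0.48 and -0.15 on the other arrays.

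Adipocyte and lipid genes rose in 4 of 24 measured members and fell in 0, beside 2.5% and 1.36% of all measured genes. Their median was 0.27. Lipoprotein lipase (Lpl) rose by 1.61, the adipogenic factor Cebpa by 1.59, the lipase inhibitor Angptl4 by 1.17 and Cebpb by 1.03. The median of 24 cholesterol synthesis genes was -0.03. Of 32 glycolysis and hypoxia genes 3 rose and 0 fell: the glucose transporter Slc2a1 at 1.43, carbonic anhydrase 12 (Car12) at 1.19 and adrenomedullin (Adm) at 1.02. Of 30 genes of ATF4 and the unfolded protein response 2 rose, Stc2 by 2.82-fold and Trib3 by 2.32-fold. The median was 0.11 for the hypoxia list and 0.03 for the ATF4 list.

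Genes of proliferation and of general stress stayed near the median of all genes. Of 32 cell cycle genes 2 rose and 1 fell, beside 2.5% and 1.36% of all measured genes, with a median of -0.09. Plk1, a mitotic kinase, rose by 1.90, E2f1 by 1.10, and cyclin D1 (Ccnd1) was at -2.16. Ccnd1 was at -2.34, -2.42, -4.77, -4.50 and -4.15 over the 5 arrays, so the 3 h high dose was lowest. None was called among 25 immediate early genes (median 0.03, Dusp4 at 0.90 and Ier3 at -0.62), 23 p53 targets and cell cycle inhibitors (-0.19), 18 clock genes (0.09), 13 heat shock genes (0.04) and 13 reference genes (0.08). Respiratory chain genes also had 0 of 26 called, but 24 of the differences were negative, within -0.47 and 0.09, with Atp5o at -0.47 and Cox5b at -0.43. Their median was -0.20.

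For several of the largest differences the 3 h control was the array that stood alone. Nrxn3, a synaptic adhesion protein, was at -0.19 in the 3 h control and between -5.00 and -4.49 on the other 4 arrays, and its 3 other probes were below background. The difference was -4.62, the largest fall among measured genes, while the bounds of 2 dim genes below exceed it. Mpp4 at -3.29 on its brighter probe and the potassium channel subunit Kcnab1 at -2.87 had the same pattern. On the other probe of Mpp4 the 3 h control did not stand alone. It was at -4.28 there, against -4.09 at the low dose and -2.53 at 48 h of the high dose. Pold3, a subunit of DNA polymerase delta, had the reverse pattern, with -2.14 in the 3 h control, 1.81 to 2.15 elsewhere and a 16.1-fold difference. Cr1l, a complement regulator, differed by -3.45, with the 48 h control the low array, at -0.24 against 3.11 to 3.80. Galnt14 was at -3.04 on its brighter probe and -0.30 on its other. Its brighter probe was low at 3 h of the high dose (-3.80) and in the 48 h control (-4.41). Kcnf1 was at -3.06 and Klk11 at -3.03, both with the 3 h control apart. Nrn1 was at -2.92, with levels of -1.26, -0.64, -4.03, -4.18 and -3.11 over the 5 arrays. Insyn2a was at -2.74 and low on both 48 h arrays, at -2.63 and -2.43. Dnmt3l rose by 3.62, with the 48 h control apart. Among the bounds, Ivd, an enzyme that degrades leucine, rose at least 170-fold because it was below background in the 3 h control alone. Next were Slc35f1 at 8.23-fold, the iron exporter Slc40a1 at 7.46-fold, and Olfr1462 and Orm3 at 7.26-fold. The largest bounds lower were D330041H03Rik at 43.5-fold, AU021092 at 31.7-fold, Cts8 at 22.7-fold, Olfr640 at 21.9-fold and Lgi1 at 20.8-fold.

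Over all called genes the controls were set against the other arrays. Those all received doxycycline and more of them are of 3 h than of 48 h. The counts below therefore do not settle which control departed. Of the 351 higher genes the 48 h control lay at least 1 from each of the other 4 arrays in 114 and the 3 h control in 14, with neither alone in 223. Of the 191 lower genes these counts were 25, 23 and 143. The 3 h low-dose level was nearer to the 48 h control than to the 3 h control for 43 of the 351 and 45 of the 191. The 3 h high-dose level was nearer to the 48 h control for 111 and 111.

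Genes with several probes give a check within the arrays. Of 3662 genes with at least 2 measured probes, 41 passed 2-fold on all of them in 1 direction (1.12%), 28 higher and 13 lower. Of 69 such genes called by their brightest probe, these same 41 were called by all probes, and 3 had a probe of the opposite sign. The largest rises by all probes included Gsta3, C3, Gstm1 and Pmepa1, the glucuronosyltransferase Ugt1a6b at 2.10, the glycine transporter Slc6a9 at 1.89, the antimicrobial peptide Camp at 1.79 and tissue factor (F3) at 1.48. Those lower included Jakmip2 at -1.90, bone sialoprotein (Ibsp) at -1.53, Inka2 at -1.40, Dpysl3 at -1.17 and Bmerb1 at -1.17. Jakmip2 was lowest at 3 h of the high dose, at -2.57, against -2.08 in the 48 h control.

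The high-dose cultures give the other pair of a 48 h and a 3 h array. Of 286 genes higher between controls and measured there, 72 were also at least 2-fold higher, 69 were lower and 145 stayed under 2-fold. Of 162 lower genes 32 were lower, 48 were higher and 82 stayed under. The shares over all genes measured in the high-dose pair were 9.13% higher and 8.43% lower. Across 13480 genes measured in both pairs the Pearson correlation was -0.03 and the Spearman correlation -0.05, a description over genes, which are not replicates. The direction of the control difference was thus not shared with the high-dose pair over genes at large. Between the high-dose arrays Plk1 was at 5.45 and Acta2 at -1.97, the same directions as between controls, while Postn at -3.69 and Angptl4 at -4.13 were opposite.

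**Figure D5:**
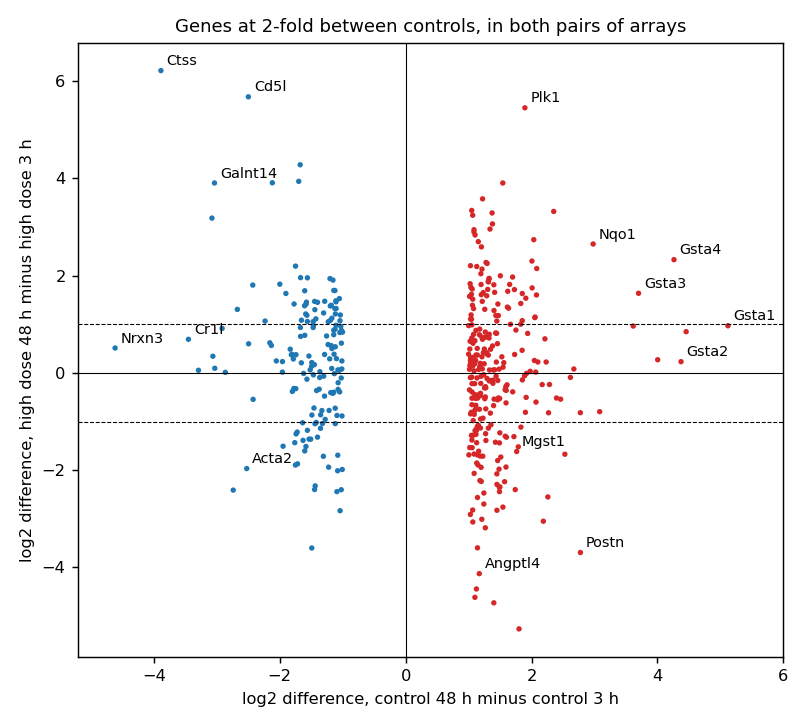
Difference between the control arrays (x axis) and between the high-dose arrays (y axis), both log2 and 48 h minus 3 h, for the genes called between controls and measured in both pairs. Red points are higher and blue points lower between controls, and the dashed lines mark 2-fold in the high-dose pair. Ctss, Cd5l and Galnt14 are lower between controls and higher in the high-dose pair, and Postn the reverse.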

How the data were processed

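Total RNA was labelled with Cy3 and hybridised to 1 Agilent array per group, per the labels' protocols. The deposited files hold linear intensities per spot, read with Agilent Feature Extraction 10.7.3.1 per the submitters' processing notes, and background-subtracted and detrended within each array but not normalised between arrays, per the file headers. The 5 arrays share 1 slide and 1 scan, per the file headers. The authors' deposited value table matched the log2 of the processed signal within 0.001 for 99.5% of probes. It is linear and uncentred, with column medians of 38.6, 32.7, 32.2, 38.1 and 24.1 (3 h control, low dose, high dose, 48 h control, 48 h high dose).

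Of the log2 intensity of 59305 spots an array, outlier spots (111 to 146) were left out, the 75th percentile was subtracted and spots of a probe were averaged; 0 spots were saturated. A probe was taken as above background if the software marked a share of 0.5 or more of its spots so. Of 55681 probes 26413 were named through RefSeq accessions, for 20018 genes, and 29268 were not; the brightest probe stood for a gene. Where a probe was dim on 1 array, a bound set the bright array against the higher of that array's lowest signal above background and the probe's own. The 2-fold rule was run on simulated data with noise of the size of the scanner error and changes larger than 2-fold put in. The simulation held no difference between cultures, so it cannot show how many calls such a difference would make. Python 3.11.15, pandas 2.3.3 and numpy 2.4.6 were used, with R 4.3.3 and limma 3.58.1 for the normexp background.

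Named genes were the 12 largest differences each way, the 10 largest each way called by all probes, the 5 largest bounds each way, up to 6 called members a list each way (up to 2 where 0 passed), the glutathione, NRF2 and matricellular lists, called cell type markers, Y-linked genes and runs of neighbours. Fos, Dio3, Cnn1, Srf, Myocd, Csf1r, Cd14, Adgre1, C1qc and Lyz2 were added after values were seen. A few genes that the rule names are not reported here. The comparison, its lists and markers were chosen with earlier results of these data known.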

Additional observations from a re-analysis of the deposited data

Results flagged for a closer look

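The 28 genes below, of those named, passed 2-fold in opposite directions in the 2 pairs of a 48 h and a 3 h array, the controls and the high dose. Each value is a log2 difference of 1 array from 1 other, and the difference between the pairs was not tested.

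Among genes that rose between controls, several of matrix and mesenchyme were lower in the high-dose pair. Postn was at 2.78 between controls and -3.69 at the high dose, Tnxb at 1.20 and -2.23, Smoc2 at 1.12 and -1.26, and Pdgfra at 1.20 and -1.94. Of the lipid genes that rose, Cebpa was at 1.59 and -1.94 and Angptl4 at 1.17 and -4.13, while Lpl (-0.24) and Cebpb (0.21) stayed under 2-fold at the high dose. Of the hypoxia genes Adm was at 1.02 and -1.54, while Slc2a1 (0.82) and Car12 (-0.42) stayed under. Stc2 was at 1.5 and -2.34. Mgst1 was at 1.76 and -1.62, Camp at 1.79 and -1.52, F3 at 1.48 and -1.98, and Wnt16 at 1.05 and -1.38.

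Among genes that fell between controls, 3 macrophage markers rose at the high dose, Ctss at -3.89 and 6.22, Cd5l at -2.50 and 5.68, and Cd74 at -1.05 and 1.53. Of the interferon-induced GTPases, Tgtp2 was at -1.77 and 1.42, Iigp1 at -1.56 and 1.06, Irgm2 at -1.14 and 1.70, and Gm4951 at -2.43 and 1.81. The imprinted run had Dlk1 at -1.58 and 1.41, Meg3 at -1.20 and 1.38, and Mirg at -1.23 and 1.05. Serping1 was at -1.30 and 1.23, Cxcl1 at -1.12 and 1.21, Mfap5 at -1.56 and 1.96, and Galnt14 at -3.04 and 3.90. Jakmip2 was at -1.90 and 1.63, and Bmerb1 at -1.17 and 1.12.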

How the results depend on the processing

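The fold threshold and the treatment of dim probes moved the counts most. At 1.5-fold 1564 genes were called (972 higher, 592 lower) and at 4-fold 70 (43 and 27). With no filter on dim probes there were 1361 (867 and 494), with a signal of at least 100 on both arrays 309 (212 and 97), and with normexp background on the median signal, chosen after seeing the data, 287 (182 and 105). The transferase median of 0.76 became 0.63 with median scaling, 0.86 with normexp and 0.99 at the signal minimum, and the NRF2 median 0.47 with median scaling. The contractile median became -0.70 with median scaling, -0.41 with no filter and -0.36 at the signal minimum, and its count of higher genes 0 with median scaling and with normexp. With no filter 4 marker medians turned negative: T, B and NK cell at -0.26, neutrophil and mast cell at -0.34, endothelial at -0.12 and melanocyte at -0.10. None of the named called genes reversed where it had a value, which was 123 of them under each alternative except 92 at the signal minimum and 111 without genes for which the 3 h control lay apart. Of these 10 fell under 2-fold with median scaling, 3 after quantile normalization, 23 with normexp, 1 with the median over probes and 1 in the deposited table. Abcc4, Adamts5, Adm, Cebpb, E2f1, Ifih1, Skil, Smoc2, Synpo2 and Wnt16 did so with median scaling. With normexp Car12, Ccl9, Cxcl1, Fbln1, Ibsp, Il6, Itga11 and Mfap5 were among them. Leaving out genes for which the 3 h control lay apart, also chosen after seeing the data, left 505 calls. Normexp on the mean signal, planned, was not run, and the median signal was used in its place. With 1 array a group no replicate could be left out, and no paired analysis was possible because the labels carry no replicate numbers. The number of arrays limits the precision, and dim genes carried most calls.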

Other observations

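The enzymes of foreign compound metabolism below lie outside the lists and were picked because they rose, from no fixed list, so their number says nothing of such enzymes at large. Cyp1a1, a cytochrome P450 that the aryl hydrocarbon receptor induces, was at -3.85 in the 3 h control, -4.75 and -4.32 at the low and high dose for 3 h, and -1.29 in the 48 h control, and it was below background at 48 h of the high dose. Its control difference was 2.56, and the 48 h control lay apart from the other arrays. Of other genes of that receptor, Cyp1b1 was at -0.07, Tiparp at -0.01, Ahrr at -0.46 and Ahr itself at 0.46, all under 2-fold. The flavin monooxygenase Fmo1 rose by 2.20, the alcohol dehydrogenase Adh1 by 2.07, the retinaldehyde dehydrogenase Aldh1a3 by 1.70, the methyltransferase Inmt by 1.80 and the aldehyde oxidase Aox3 by 1.85. Ugt1a6a was at least 5.27-fold higher as a bound, beside Ugt1a6b at 2.10, and these copies share sequence. Fmo1, Inmt and Aldh1a3 were lower in the high-dose pair, at -5.79, -5.26 and -2.56, and Aox3 was higher at 1.07.

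The acute phase glycoproteins Orm1 and Orm2, chosen in the same way, rose by 1.38 and 1.83. Orm2 was at -3.46, -3.54, -2.54, -1.64 and -1.54 over the 5 arrays, so both 48 h arrays were higher than the arrays of 3 h. The natriuretic peptide genes Nppb and Nppc fell, with control differences of -1.75 and -1.63 and high-dose differences of -1.89 and -1.39. Nppb was at 1.42, 2.03 and 2.12 on the arrays of 3 h and at -0.33 and 0.23 on those of 48 h, so the times did not overlap. The imprinted genes Mest and Nnat moved apart, at 1.85 and -2.15 between controls.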
